A study of Mus musculus with 14 samples.

Results

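The axon guidance receptors and ligands of muscle satellite cells were described here over 5 groups of mice. The members are all non-control probes whose gene name on the array is that of an Eph receptor, an ephrin, a semaphorin of classes 3 to 7, a plexin, Nrp1 or Nrp2, Slit1 to Slit3, Robo1 to Robo4, a netrin (Ntn1 to Ntn5) or begins with Unc5. This rule found 70 gene names on 90 probes, of 36406 names on 55681 probes in all. By role these were 8 ephrins, 14 Eph receptors, 20 semaphorins, 11 plexins and neuropilins, 10 netrins and Unc5 names, and 7 Slits and Robos. Of the 70, 68 had a probe that at least 2 arrays of some group read well above background, and were tested, among 32863 genes tested in all. Epha8 was above background on 1 array and Unc5cl on 0, and neither was tested. The name rule also took in Unc50, which encodes a Golgi membrane protein, and Unc5cl, neither of which is a netrin receptor.

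RNA from satellite cells, the stem cells that lie beneath the basal lamina of muscle fibres, was measured on 14 single-colour Agilent arrays, 1 sample each. The cells were sorted as integrin α7-positive and CD34-positive, excluding cells with CD31, CD45, CD11b or Sca1. C57BL/6 mice gave Young samples (3 arrays, 2 to 3 months), Old samples (3 arrays, 22 to 24 months) and Geriatric samples (2 arrays, 29 and 30 months, numbered 1 and 3). SAMR1 (senescence-resistant) and SAMP8 (senescence-prone) mice, 3 arrays each, were 12 months old. The labels call all mice male, give no treatment or engineered allele, and call the arrays biological replicates without saying whether a sample held 1 animal or several. Levels are log2 of the processed signal relative to the 75th percentile of each array, so 0 is that percentile and a difference of 1 is a factor of 2. Brightness differs between probes, so levels were compared between arrays for 1 probe and not between genes.

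Axon guidance genes encode cues and receptors that steer growing axons and also guide other migrating cells and vessels. Ephrins are membrane-bound ligands of the Eph receptor tyrosine kinases; semaphorins signal through plexins, the secreted class 3 with neuropilins as co-receptors. Netrins bind Dcc, Neo1 and the Unc5 receptors, and Slits bind Robo receptors. In muscle, Sema3a has been studied as a signal from satellite cells to motor nerve endings, Slits and Robos and Eph-ephrin contacts in the movement of satellite cells.

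The labelled cell type and the labelled sex were checked first. All 12 satellite cell markers were above background on every array, and their summed level ran from 6.91 to 7.63. Pax7, which defines satellite cells, read 3.39 to 4.58, Itga7 0.14 to 1.46, Cd34 2.46 to 3.60 and Myf5 −5.17 to −1.60. Between 77.2% and 88.7% of probes were well above background per array, and outlier spots, which were left out, numbered 94 to 255 except for 969 on Geriatric 1. Xist, the RNA expressed from the inactive X chromosome, read 5.08 to 5.86 on the 6 Young and Old arrays and −8.15 to −3.52 on the other 8. Ddx3y, a gene of the Y chromosome, read −7.69 to −7.36 on the Young and Old arrays, where it was not well above background, and −0.55 to 0.56 on the Geriatric, SAMR1 and SAMP8 arrays. Uty and Kdm5d, also Y-linked, showed the same split in detection, below that mark on all 6 Young and Old arrays and above it on the other 8. Age and this difference in sex-linked transcripts cannot be told apart in either comparison of Geriatric with younger cells, so each such result below carries it.

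The probe sequences of 4 members are shown first because each holds a simple repeat. The 4 member probes with the strongest signal, those of Ephb3 (mean level 7.91 over 14 arrays), Sema4c (7.84), Epha5 (7.37) and Sema6d (5.96), each carried an unbroken run of alternating T and G of 33, 23, 20 and 20 bases. The 30-base stretch of each 60-base probe that holds the run, or as much of it as 30 bases can hold, is given 5′ to 3′ with the run in capitals. Coordinates are those of mouse build mm9 in the array design: chr16:21223165-21223224 on the plus strand for Ephb3, chr1:36605998-36606057 on the minus strand for Sema4c, chr5:84487348-84487407 on the minus strand for Epha5 and chr2:124491609-124491668 on the plus strand for Sema6d. Exon or UTR positions were not assigned.
Ephb3: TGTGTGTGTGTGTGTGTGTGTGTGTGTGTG
Sema4c: aaTGTGTGTGTGTGTGTGTGTGTGTtgtaa
Epha5: cgaaatTGTGTGTGTGTGTGTGTGTGcgtg
Sema6d: agaggggcgaGTGTGTGTGTGTGTGTGTGT

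Over the whole array, 91 probes (0.163%) held such a run of at least 14 bases, searched on the probe strand after the levels had been seen. Their median level was 7.45 (quartiles 6.48 and 7.93), and 84 of the 91 had a level of at least 5. The other 55590 probes had a median of −2.31 (quartiles −4.71 and −0.10), and 1.63% of them reached a level of 5. A second probe for Epha5, with no such run, was not well above background on any of the 14 arrays and read between −8.13 and −5.99. The second Sema6d probe read between 1.28 and 2.20 on the 14 arrays, against 5.53 to 6.43 for the probe with the run. Both second probes begin as follows.
Epha5, second probe: gttcccatctgcatttgtttgtgctttcag
Sema6d, second probe: taaagaggacaccatccttaaaacctgatg

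The 91 repeat probes had a median log2 change of −0.51 in Geriatric versus Young and 0.18 in SAMP8 versus SAMR1, and the kept probes without such a run −0.13 and 0.005. Ephb3 changed by −0.51 and 0.33, Sema4c by −0.68 and 0.23, Epha5 by −0.40 and 0.13 and Sema6d by −0.16 and 0.26 in the same comparisons. None of the 4 passed the test in any comparison (adjusted p from limma of 0.0609 or more, the lowest for Epha5 in Geriatric versus Old). None of the 13 axon guidance genes called below, nor of the 96 partner genes tested, was measured by a probe with such a run. The part of the run in the signal was not tested.

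**Figure D1:**
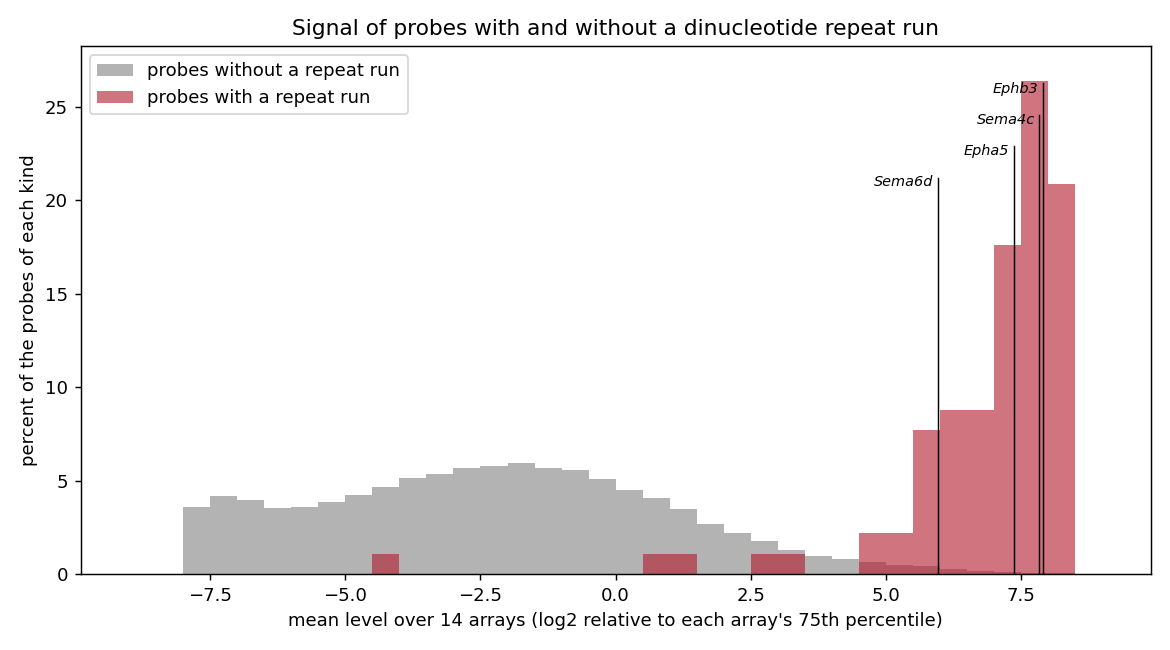
Share of probes (vertical axis, percent of each kind) by mean level over 14 arrays (horizontal axis, in log2 units as in the text). Grey marks the 55590 probes without a run of alternating T and G of at least 14 bases, and red the 91 with one. Vertical lines mark the 4 axon guidance genes on such probes, which lie between 5.96 and 7.91 among the other repeat probes.

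Across the 4 comparisons of groups, 13 of the 68 axon guidance genes passed the test (limma, Benjamini-Hochberg over all genes, adjusted p under 0.05) in at least 1. Old versus Young called 1 of 68 (1.47%), Sema4d, which was lower in Old; over all genes 1.44% were called. Geriatric versus Young called 5 of 68 (7.35%), against 4.19% of all genes: Ntn4, Ntn5 and Sema5a rose and Sema3a and Epha3 fell. Geriatric versus Old called 12 of 68 (17.6%), against 20.0% of all genes, so the share of axon guidance genes was below that of the array. Here Ntn4, Ntn5, Sema4d, Sema5a, Epha4, Ephb1, Plxna2 and Unc50 rose, and Sema3a, Sema3e, Efna5 and Epha3 fell. SAMP8 versus SAMR1 called 1 of 68 (1.47%), Slit3, against 0.453% of all genes. The median log2 change of the 68 was 0.06 in Old versus Young, −0.13 in Geriatric versus Young, −0.21 in Geriatric versus Old and 0.09 in SAMP8 versus SAMR1, beside 0.06, −0.18, −0.22 and 0.01 over all genes. Under quantile normalization of the processed signal the all-gene medians in Geriatric versus Young and Geriatric versus Old were −0.04 and 0.03. Among the axon guidance genes called in Geriatric versus Young, 3 rose and 2 fell, against 5 and 1 after normexp background correction and quantile normalization. The 3 comparisons among C57BL/6 groups share arrays in pairs, so a gene called in more than 1 of them is not independent evidence.

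**Figure D2:**
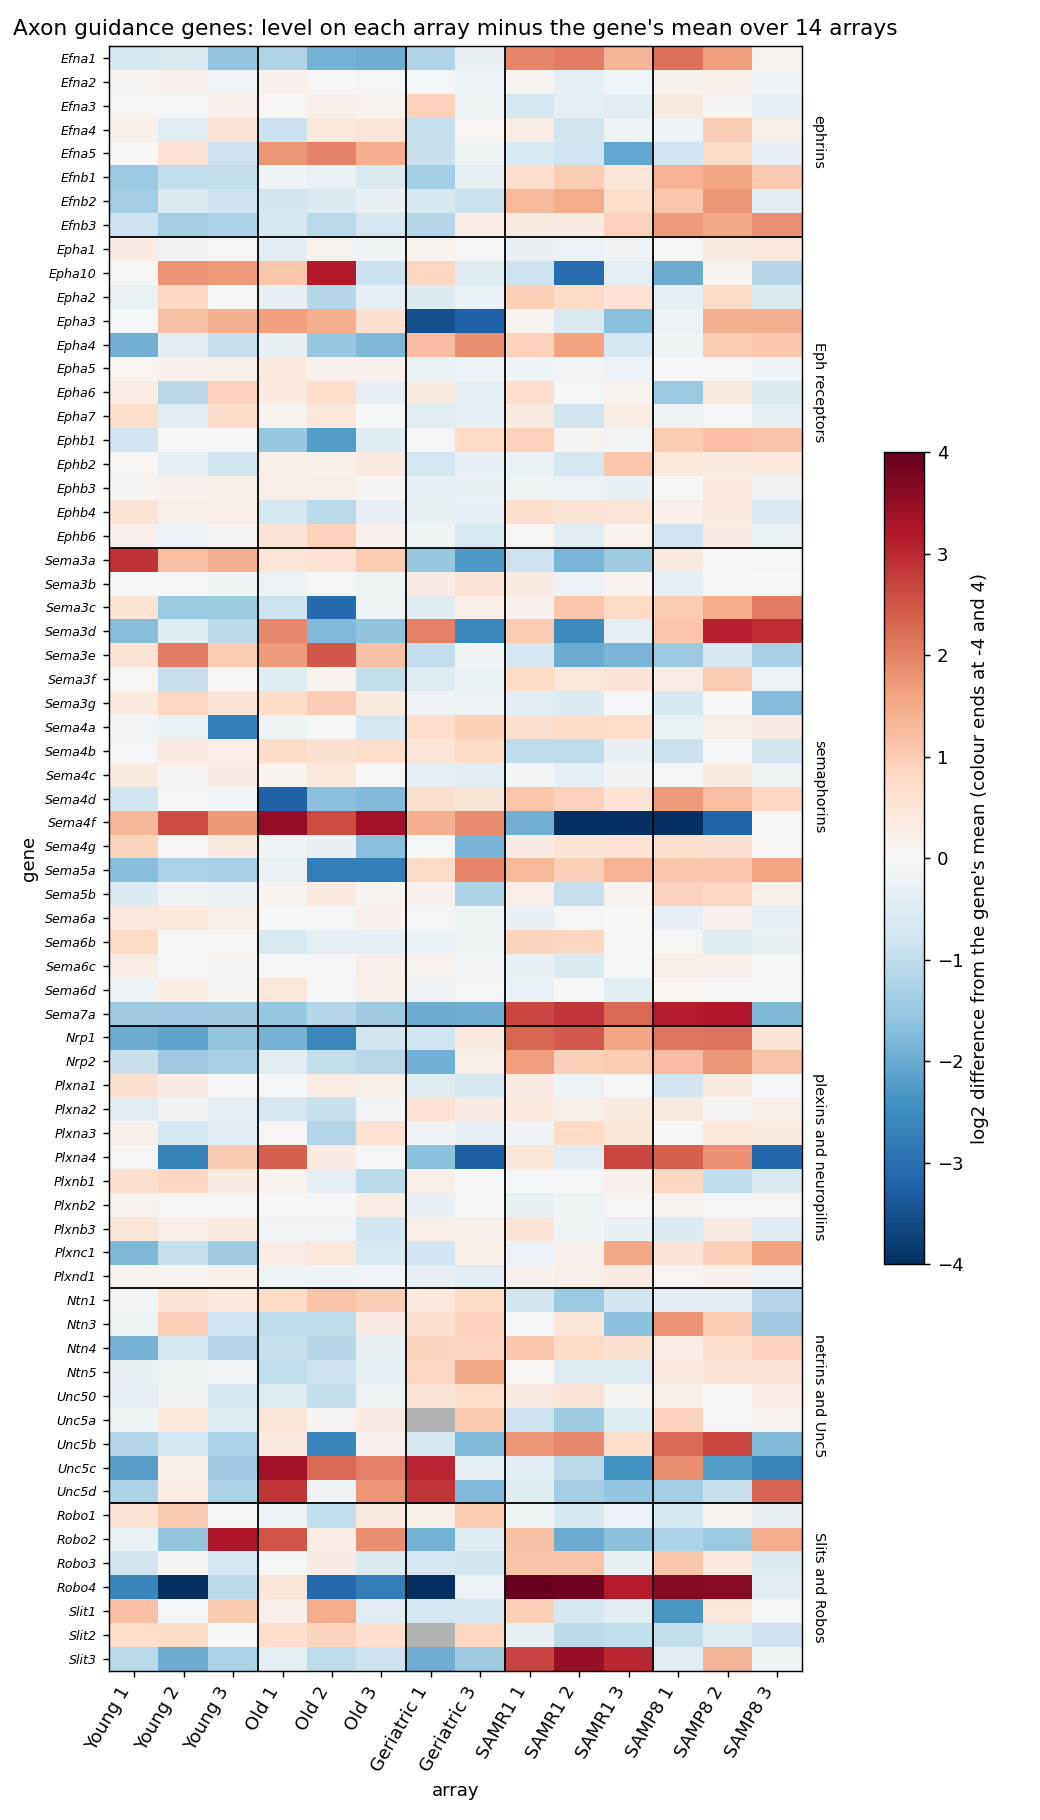
Level of each of the 68 tested axon guidance genes (rows, by family) on each of the 14 arrays (columns, by group) minus the gene's mean over the arrays, in log2 units, red above and blue below the mean, with grey for the 2 values left out as outlier spots on Geriatric 1. Epha3 is lowest on both Geriatric arrays, Slit3 is highest on the 3 SAMR1 arrays, and Nrp1, Efna1, Robo4 and Sema7a are higher on most SAMR1 and SAMP8 arrays.

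Several of these genes divided the arrays exactly as the sex-linked transcripts did. For 5 of 68 axon guidance genes (7.35%) all 8 Geriatric, SAMR1 and SAMP8 arrays lay above all 6 Young and Old arrays, beside 2.63% of all genes. For 4 of 68 (5.88%) they lay below, beside 6.76% of all genes. The first group is Ntn4, Plxna2, Sema4d, Sema5a and Unc50, and the second Sema3a, Sema3e, Sema3g and, on its repeat probe, Epha5. Of the 12 genes called in Geriatric versus Old, 7 were of this kind, and of the 5 called in Geriatric versus Young, 3. The shares above are over all tested genes, called or not. The share among all called genes was not counted, so these counts among called genes have no background beside them. For Epha3, Epha4, Efna5, Ephb1 and Ntn5, SAMR1 or SAMP8 arrays overlapped the Young and Old range. This count was chosen after seeing the data and rests partly on the same arrays as the calls, so no test was made.

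**Figure D3:**
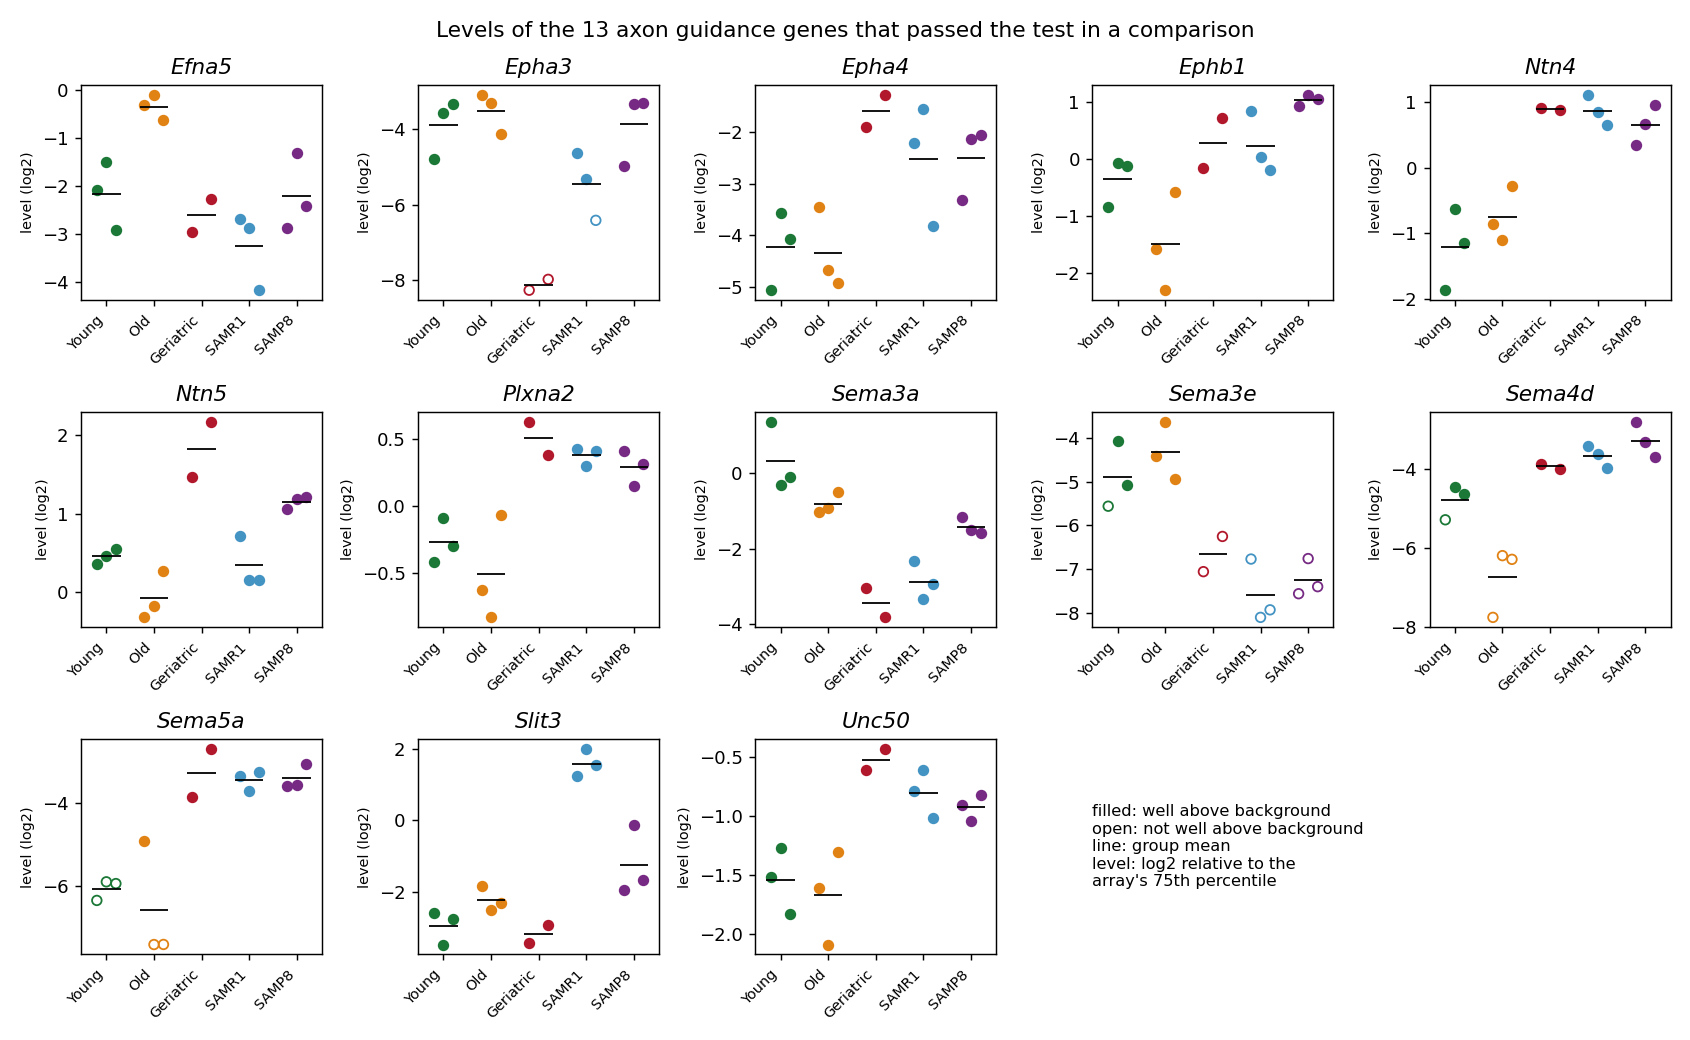
Level (vertical axis, in log2 units as in the text) on each array of the 13 axon guidance genes called in a comparison, by group (horizontal axis), with filled points where the probe was well above background, open points where it was not, and lines for group means. Both Geriatric points of Epha3 are open and lie at −8.26 and −7.98, below all other arrays, and the SAMR1 and SAMP8 points of Ntn4, Plxna2, Sema4d, Sema5a and Unc50 lie near the Geriatric ones.

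Among the ephrins, the ligands of Eph receptors, Efna5 was the 1 of 8 called, in Geriatric versus Old (12.5%, beside 20.0% of all genes). Its levels were −2.08, −1.49 and −2.92 on the Young arrays, −0.32, −0.10 and −0.64 on the Old and −2.96 and −2.26 on the Geriatric. All 3 Old arrays lay above every other array of C57BL/6, and the Young and Geriatric ranges overlapped. SAMR1 read −2.69, −2.86 and −4.16 and SAMP8 −2.87, −1.32 and −2.41. Efna5 fell by 2.26 ± 0.56 (log2, SE) from Old to Geriatric (adjusted p = 0.0179) and differed by 1.81 ± 0.50 between Old and Young (adjusted p = 0.104, not called). Without Old 2, Geriatric 1 or Geriatric 3 the call was lost, with adjusted p up to 0.112. The ephrins with the strongest signal, Efnb1, Efna4 and Efnb2, ran over the 14 arrays from −1.27 to 1.77, −1.43 to 0.49 and −1.93 to 1.20. None of these 3 was called in any comparison.

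Epha3, a receptor of A-type ephrins, fell in Geriatric cells to levels not well above background. It read −4.78, −3.58 and −3.34 on the Young arrays, −3.09, −3.31 and −4.13 on the Old, and −8.26 and −7.98 on the Geriatric arrays. The SAMR1 arrays read −4.64, −5.32 and −6.42 and the SAMP8 arrays −4.98, −3.34 and −3.32, so all 6 lay above both Geriatric arrays. Because Geriatric gives only a bound, the Young level was at least 4.89-fold higher and the Old level at least 6.40-fold higher. In each bound the dimmer group is set at the higher, per array, of the lowest signal well above background and the probe's own. The fitted changes were −4.22 ± 0.64 (adjusted p = 0.00449) and −4.61 ± 0.64 (adjusted p = 0.000914). Leaving out any 1 array kept both calls. With the authors' table the change from Young was −0.92 and was not called. The single Epha3 probe lies at chr16:63545155-63545214 (minus strand) and begins as follows.
Epha3: acccagagaattatatgttcttttctacaa

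Epha4 and Ephb1 moved the other way from Old to Geriatric. Epha4, which binds both classes of ephrin, read −3.45, −4.67 and −4.93 on Old and −1.90 and −1.27 on Geriatric arrays, a change of 2.76 ± 0.70 (adjusted p = 0.0194). Young arrays read −5.07, −3.56 and −4.08, and the change from Young, 2.65 ± 0.70, missed the threshold (adjusted p = 0.0597). Ephb1, a receptor of B-type ephrins, read −1.58, −2.30 and −0.57 on Old and −0.16 and 0.73 on Geriatric arrays, a change of 1.77 ± 0.49 (adjusted p = 0.0267). Its Young arrays, −0.84, −0.07 and −0.11, overlapped both. Epha4 lost its call without Old 2, Geriatric 1 or Geriatric 3 (adjusted p up to 0.138), and Ephb1 without Old 1, Old 2 or Geriatric 3 (up to 0.214). Ephb4, the receptor of Efnb2 in vessels, read 3.17, 2.83 and 2.89 on Young and 1.92, 1.53 and 2.27 on Old arrays without overlap, but the change of −1.06 ± 0.27 was not called (adjusted p = 0.0792).

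Of the 20 semaphorins, 4 (20%) were called in Geriatric versus Old, the same share as the 20.0% of all genes. Sema3a, a secreted repellent that acts through neuropilins and plexins, read 1.37, −0.30 and −0.08 on Young, −1.02, −0.92 and −0.50 on Old and −3.04 and −3.81 on Geriatric arrays. The 3 groups did not overlap. SAMR1 arrays read −2.33, −3.32 and −2.94 and SAMP8 arrays −1.15, −1.51 and −1.58, without overlap, and the SAMR1 range overlapped that of Geriatric. The fall from Young to Geriatric was −3.76 ± 0.47 (adjusted p = 0.00166) and that from Old −2.62 ± 0.47 (adjusted p = 0.00384). The change from Old was lost without Geriatric 3 (adjusted p = 0.0528), and the change from Young held without any 1 array. Old versus Young differed by −1.14 ± 0.42 (adjusted p = 0.200) and SAMP8 versus SAMR1 by 1.45 ± 0.42 (adjusted p = 0.272), neither called. In Geriatric versus Young the blocked fit over slides gave −3.54, and slide 2 alone, which holds both Geriatric arrays, −3.13.

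Sema3a was read by 2 kept probes that lie 128949 bases apart and share no run longer than 6 bases. The brighter one is at chr5:13473453-13473512 and the other at chr5:13602462-13602521, both on the plus strand.
Sema3a, brighter probe: tatgcctgtggaactggggctttccatcca
Sema3a, other probe: gatgggaactagaaaactggagagaaaaat

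On the other probe Young read −1.81, −2.69 and −3.22, Old −2.79, −2.32 and −2.52, and Geriatric −3.48 and −6.18, the last not well above background. Its change from Young to Geriatric, −2.26, had the same direction and was not called when each probe was tested (adjusted p = 0.256). SAMP8 was not well above background on this probe on any array, so no change against SAMR1 is given.

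Sema3e, a ligand of Plxnd1, fell from −4.42, −3.63 and −4.93 on Old arrays to −7.06 and −6.25 on Geriatric arrays, where it was not well above background, nor was it on any SAMR1 or SAMP8 array. Old was at least 3.64-fold higher (fitted change −2.33 ± 0.55, adjusted p = 0.0140). The call was lost without Geriatric 1 (adjusted p = 0.0984) and under both quantile normalizations, the authors' table included. Sema5a, a transmembrane semaphorin with thrombospondin repeats, rose. It read −6.35, −5.90 and −5.95 on Young arrays, not well above background, −4.92, −7.42 and −7.42 on Old (above background on 1 of 3) and −3.84 and −2.69 on Geriatric. Geriatric was at least 4.66-fold higher than Young (2.80 ± 0.64, adjusted p = 0.0338) and differed from Old by 3.32 ± 0.64 (adjusted p = 0.00549). The 6 SAMR1 and SAMP8 arrays, from −3.69 to −3.05, lay inside the Geriatric range. The call against Young was lost without any 1 of the 3 Young arrays, Geriatric 1, Geriatric 3 or SAMR1 1 (adjusted p up to 0.245), and that against Old without Geriatric 3 (0.0702). With slide as a block, both Geriatric arrays being on slide 2, the change from Young was 2.57 and was not called (adjusted p = 0.0978). With normexp and quantile normalization, as with the authors' table, the Sema5a changes from Young and Old were 1.05 and 1.21, both called.

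Sema4d, a plexin B ligand known as CD100 on immune cells, was low on the Old arrays. Young read −5.29, −4.47 and −4.64, the first not well above background. Old read −7.76, −6.19 and −6.29 with none well above background. Geriatric read −3.88 and −4.0, SAMR1 −3.43, −3.61 and −3.97 and SAMP8 −2.81, −3.33 and −3.71. No Old array reached any other array of the set. Geriatric was at least 2.82-fold higher than Old. The same reckoning gave 1.56-fold for Young, but its mean includes Young 1, so this is not a strict bound. The fitted changes were −1.95 ± 0.40 for Old versus Young (adjusted p = 0.0424) and 2.81 ± 0.45 for Geriatric versus Old (adjusted p = 0.00213). With normexp and quantile normalization, as with the authors' table, these changes were −0.43 (adjusted p = 0.174, not called) and 0.78 (adjusted p = 0.0101). Leaving out any 1 array kept the call in Geriatric versus Old. In Old versus Young the call was lost when 1 array was left out in 11 of 14 cases, the exceptions being Old 2, Old 3 and SAMP8 3, with adjusted p from 0.0373 to 0.115 over the 14. The probe lies at chr13:51796617-51796676 and that of Sema5a at chr15:32626025-32626084, on the minus and plus strand.
Sema4d: tttctacttggaactgtacacatttgaaaa
Sema5a: gttttgtgtaaatagtttgccttgttcagt

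The other semaphorins were not called in any comparison. Sema6a, whose probe has no repeat run, read between 4.54 and 5.31 on the 14 arrays. Sema3b read between 2.16 and 3.1, and its change in Geriatric versus Young was 0.53 ± 0.22 (adjusted p = 0.194).

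Of the plexins and neuropilins, which receive semaphorin signals, 1 of 11 was called, in Geriatric versus Old (9.09%, beside 20.0% of all genes). This was Plxna2, a receptor used by class 3 and class 6 semaphorins. It read −0.62, −0.83 and −0.07 on Old and 0.62 and 0.38 on Geriatric arrays, a change of 1.01 ± 0.24 (adjusted p = 0.0136), lost without either Geriatric array (adjusted p up to 0.0894). The change from Young, 0.77 ± 0.24, was not called (adjusted p = 0.0959). Plxnd1, the receptor of Sema3e, read 2.91, 2.90 and 3.00 on Young, 2.59, 2.60 and 2.67 on Old and 2.44 and 2.36 on Geriatric arrays. These groups did not overlap, yet the largest difference, −0.54 ± 0.17 in Geriatric versus Young, was not called (adjusted p = 0.107). A second Plxnd1 probe read 1.77, 2.03 and 1.66 on Young and 2.01 and 1.86 on Geriatric arrays, which overlapped, a change of 0.11. Plxnb2, a receptor of class 4 semaphorins, read between 1.30 and 1.91 on the 14 arrays.

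Of the netrins, Ntn4 and Ntn5 rose. Ntn4, a basement membrane netrin that binds laminins, read −1.87, −0.62 and −1.14 on Young, −0.86, −1.10 and −0.28 on Old, and 0.91 and 0.88 on Geriatric arrays. SAMR1 read 1.11, 0.85 and 0.65 and SAMP8 0.34, 0.66 and 0.95, so all 8 of these arrays lay above all Young and Old ones. The rise was 2.11 ± 0.36 from Young (adjusted p = 0.00814) and 1.64 ± 0.36 from Old (adjusted p = 0.0101), and 1.88 from Young with slide as a block. Both calls were lost without either Geriatric array (adjusted p up to 0.0650 and 0.0687). Its probe is at chr10:93208482-93208540 on the plus strand.
Ntn4: cggccacgaggacgtaagaacgggcaaatt

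Ntn5, a less studied secreted netrin, read 0.35, 0.46 and 0.54 on Young, −0.32, −0.18 and 0.27 on Old and 1.47 and 2.17 on Geriatric arrays. Here the SAM arrays did not share the Geriatric level: SAMR1 read 0.71, 0.15 and 0.16 and SAMP8 1.06, 1.19 and 1.21, all below both Geriatric arrays. The rise was 1.37 ± 0.27 from Young (adjusted p = 0.0169) and 1.90 ± 0.27 from Old (adjusted p = 0.00104). Without Geriatric 3 the call against Young was lost (adjusted p = 0.176), and the call against Old held without any 1 array. SAMP8 and SAMR1 did not overlap, with a difference of 0.81 ± 0.24 that was not called (adjusted p = 0.284). The probe's mm9 coordinates, chr7:52947753-52949386 on the plus strand, span more than its 60 bases.
Ntn5: tgcacatgagccttcagagatactgtcagc

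Ntn1, the netrin that attracts commissural axons, ran from −1.44 to 1.17 and was not called. Among the Unc5 receptors, which mediate repulsion by netrins, none was called in any comparison. Unc5a had the second smallest p in SAMP8 versus SAMR1, with −3.78, −4.38 and −3.43 on SAMR1 and −2.01, −2.99 and −2.80 on SAMP8 arrays (1.26 ± 0.34, adjusted p = 0.238). Its Geriatric 1 spot was an outlier and left out. Unc50 rose from −1.61, −2.09 and −1.31 on Old to −0.61 and −0.43 on Geriatric arrays (1.15 ± 0.26, adjusted p = 0.0113), and was lost without Geriatric 3 (0.0960).

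Slit3, a secreted ligand of Robo receptors, was the axon guidance gene called between the SAM strains. It read 1.23, 1.99 and 1.53 on SAMR1 and −1.95, −0.14 and −1.66 on SAMP8 arrays without overlap, a difference of −2.83 ± 0.44 (adjusted p = 0.0169). All 8 C57BL/6 arrays were lower than SAMP8 2, between −3.46 and −1.83. With slide as a block the difference was −2.71 (adjusted p = 0.0305), and within slides 1 and 2 it was −1.51 and −3.79, not called in either. Slide 1 holds 1 SAMP8 array and slide 2 holds 1 SAMR1 array, and each is assumed to vary like the other groups. The call was lost without SAMR1 1, SAMR1 2, SAMR1 3 or SAMP8 1 (adjusted p up to 0.0948). Beside it, the summed level of the 10 measured Schwann cell markers (of 12 listed) was 5.48 to 5.87 on SAMR1 and 5.48 to 5.61 on SAMP8 arrays, with Pmp22 the brightest of them. Of the 10, 6 had a lower and 4 a higher mean in SAMP8 than in SAMR1, and limma called 0. The summed level of the 12 smooth muscle and pericyte markers was 7.88 to 8.01 on SAMR1 and 7.94 to 8.40 on SAMP8 arrays, with Mcam the brightest of them. The pericyte markers Rgs5 and Higd1b were lower on all SAMP8 than on all SAMR1 arrays (−2.36 and −1.17, neither called). Abcc9 of the same list was higher on all SAMP8 arrays (1.86, not called). Abcc9, Cspg4, Pdgfrb and Mcam had higher means in SAMP8 than in SAMR1, and the other markers of the list lower ones. The part of these markers in the Slit3 difference was not tested, and in sorted bulk samples fewer cells of a type and less RNA per cell cannot be told apart. The probe lies at chr11:35521559-35521618 on the plus strand.
Slit3: aatatgtcttccagtgcacggacggctcct

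Slit2 ran from −4.39 to −2.45 over 13 arrays, its Geriatric 1 spot being an outlier and left out, and Slit1 from −4.99 to −1.20. None of the Robo receptors was called in any comparison.

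**Figure D4:**
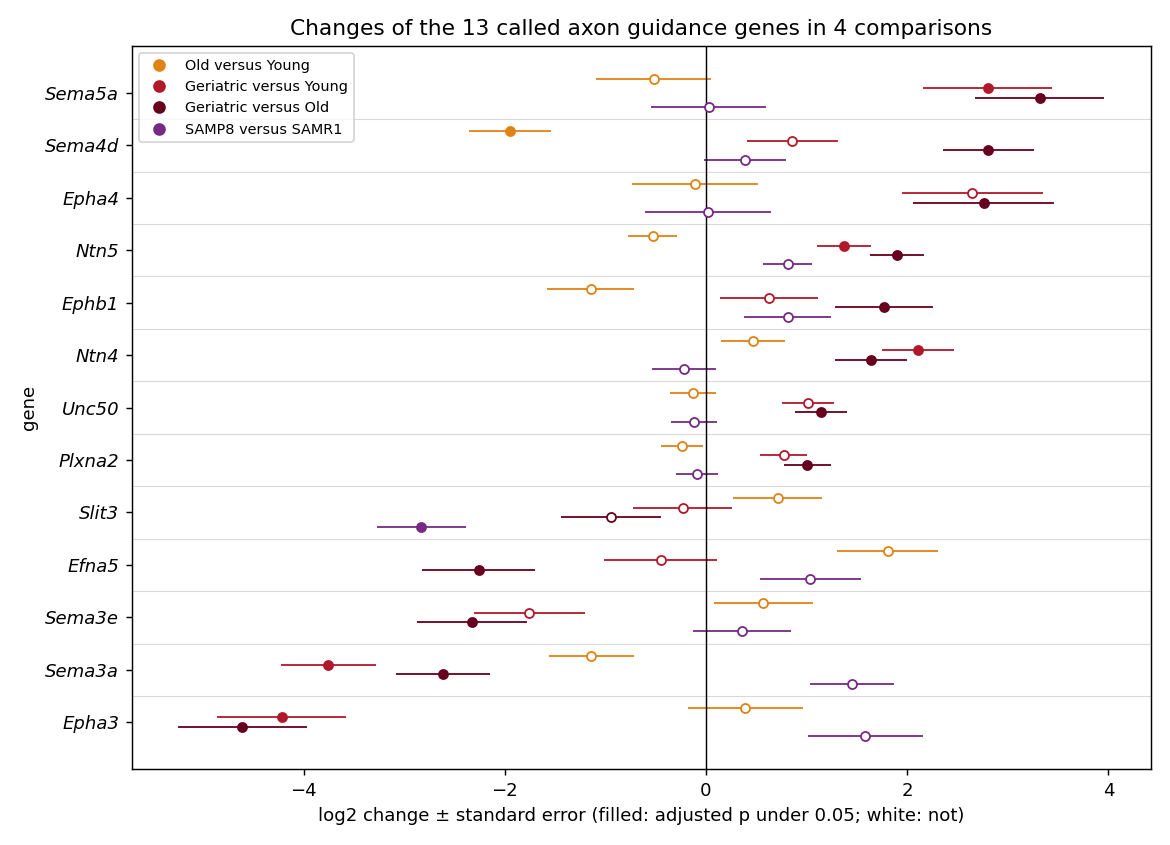
Log2 change (horizontal axis) with its standard error from limma for the 13 called axon guidance genes (vertical axis, ordered by the change in Geriatric versus Old) in 4 comparisons, with filled points at adjusted p under 0.05 and white points otherwise. Sema3a and Epha3 lie left of 0 in both Geriatric comparisons and right of 0, uncalled, in SAMP8 versus SAMR1.

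Whether the change at geriatric age differed from the difference between the SAM strains was tested as the difference of the 2 contrasts. It was called for 3 of 68 axon guidance genes (4.41%), beside 1.73% of all genes. Sema3a fell by 3.76 in Geriatric versus Young and was 1.45 higher in SAMP8 than in SAMR1, a difference of −5.21 ± 0.63 (adjusted p = 0.00209). For Epha3 the changes were −4.22 and 1.58, a difference of −5.80 ± 0.86 (adjusted p = 0.00658). As Epha3 was not well above background on either Geriatric array, the size of this difference is uncertain, and it ran from −6.35 to −1.45 over the settings tried. For Ntn4 they were 2.11 and −0.22, a difference of 2.32 ± 0.48 (adjusted p = 0.0356). Leaving out any 1 array kept the calls of Sema3a and Epha3. The Epha3 call was lost with normexp and quantile normalization and with the authors' table (−1.45, adjusted p = 0.0502 in both), and the Sema3a call with the mean of a gene's probes (−3.45, adjusted p = 0.0876). Neither was called within slide 2 alone (adjusted p = 0.332 and 0.230). Ntn4 lost its call without Young 3, either Geriatric array, any SAMR1 array, SAMP8 1 or SAMP8 2 (adjusted p up to 0.121).

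A further pattern separated the SAMR1 and SAMP8 arrays from the C57BL/6 arrays. For 5 of 68 axon guidance genes (7.35%) all 6 SAMR1 and SAMP8 arrays lay above all 8 C57BL/6 arrays, beside 1.96% of all genes: the ephrins Efna1, Efnb1 and Efnb3 and the neuropilins Nrp1 and Nrp2, co-receptors of class 3 semaphorins and of vascular growth factors. For 3 (4.41%) they lay below, beside 2.17% of all genes: Ntn1, Sema4f and Slit2. This count was chosen after seeing the data, and strain and age differ together between these arrays, so no test was made. Mean levels on C57BL/6 and SAM arrays were −3.03 and 0.24 for Nrp1, −2.31 and −0.04 for Nrp2, −3.20 and −0.46 for Efna1, −0.56 and 1.23 for Efnb1 and −1.48 and 0.46 for Efnb3. Sema4f had means of −0.96 and −6.35 on the brighter of its 2 probes, which was above background on 1 of 3 arrays in each SAM group and on every C57BL/6 array. The other Sema4f probe was above background on 2 of 3 SAMP8 arrays and on 0 of 3 SAMR1 arrays. The other kept Ntn1 probe did not divide the strains, with −2.01 to −0.67 on C57BL/6 and −2.29 to −1.16 on SAM arrays. Both Nrp2 probes did.

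Most endothelial markers moved in the same way although the sort removed CD31-positive cells. The summed level of the 12 endothelial markers was 3.59 to 4.32 on the 8 C57BL/6 arrays, 5.54 to 6.58 on the SAMR1 arrays and 6.15 and 6.32 on SAMP8 1 and 2, but 4.28 on SAMP8 3. Tek was the brightest of them on every C57BL/6 array (2.92 to 3.96) and overlapped with the SAM arrays (3.42 to 4.43). Vwf also overlapped, with −2.56 to 0.09 on C57BL/6 and −2.61 to 0.43 on SAM arrays. Pecam1, which encodes CD31, read −4.95 to 0.11 on C57BL/6 arrays, 2.39 to 3.80 on the SAMR1 arrays and SAMP8 1 and 2, and 0.61 on SAMP8 3. SAMP8 3 was also the lowest SAM array for Nrp1 (−1.09 against −0.05 to 0.84), Efna1 (−1.89 against −0.65 to 0.17), Efnb2 (−0.96 against 0.14 to 1.20), Unc5b (−4.81 against −2.34 to −0.40) and Robo4, a Robo known from vessels (−2.79 against 0.81 to 1.88). Sema7a was not well above background on SAMP8 3 or on any C57BL/6 array and read −3.95 to −3.03 on the other 5 SAM arrays. Efnb1, Efnb3 and Nrp2 on SAMP8 3 read 1.24, 1.17 and −0.20, and SAMP8 3 was not the lowest SAM array for any of them. Some markers of other cell types also divided the strains. The summed level of the 11 measured mesenchymal markers was 5.70 to 6.45 on C57BL/6 and 6.25 to 7.08 on SAM arrays, which overlapped. Within that list Mfap5 read −1.94 to −0.60 on C57BL/6 and −0.13 to 1.45 on SAM arrays, and Col1a2 1.57 to 2.80 and 3.26 to 4.04, and on SAMP8 3 they read 1.45 and 3.52. The other measured markers of that list overlapped between C57BL/6 and SAM arrays. Among them Col3a1 read 4.18 to 5.37 on C57BL/6 and 4.89 to 5.39 on SAM arrays, and Dpt −3.11 to −1.28 and −2.78 to −2.04. The pericyte marker Rgs5 read at most −2.07 on C57BL/6 arrays, −1.52 on SAMP8 3 and 1.13 to 3.04 on the other SAM arrays. The summed level of its list of 12 smooth muscle and pericyte markers was 7.84 to 8.49 on C57BL/6 and 7.88 to 8.40 on SAM arrays, which overlapped. Acta2 and Des of that list had lower means in both SAM groups than in any C57BL/6 group. The part of endothelial, mesenchymal or pericyte RNA in these levels was not tested.

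**Figure D5:**
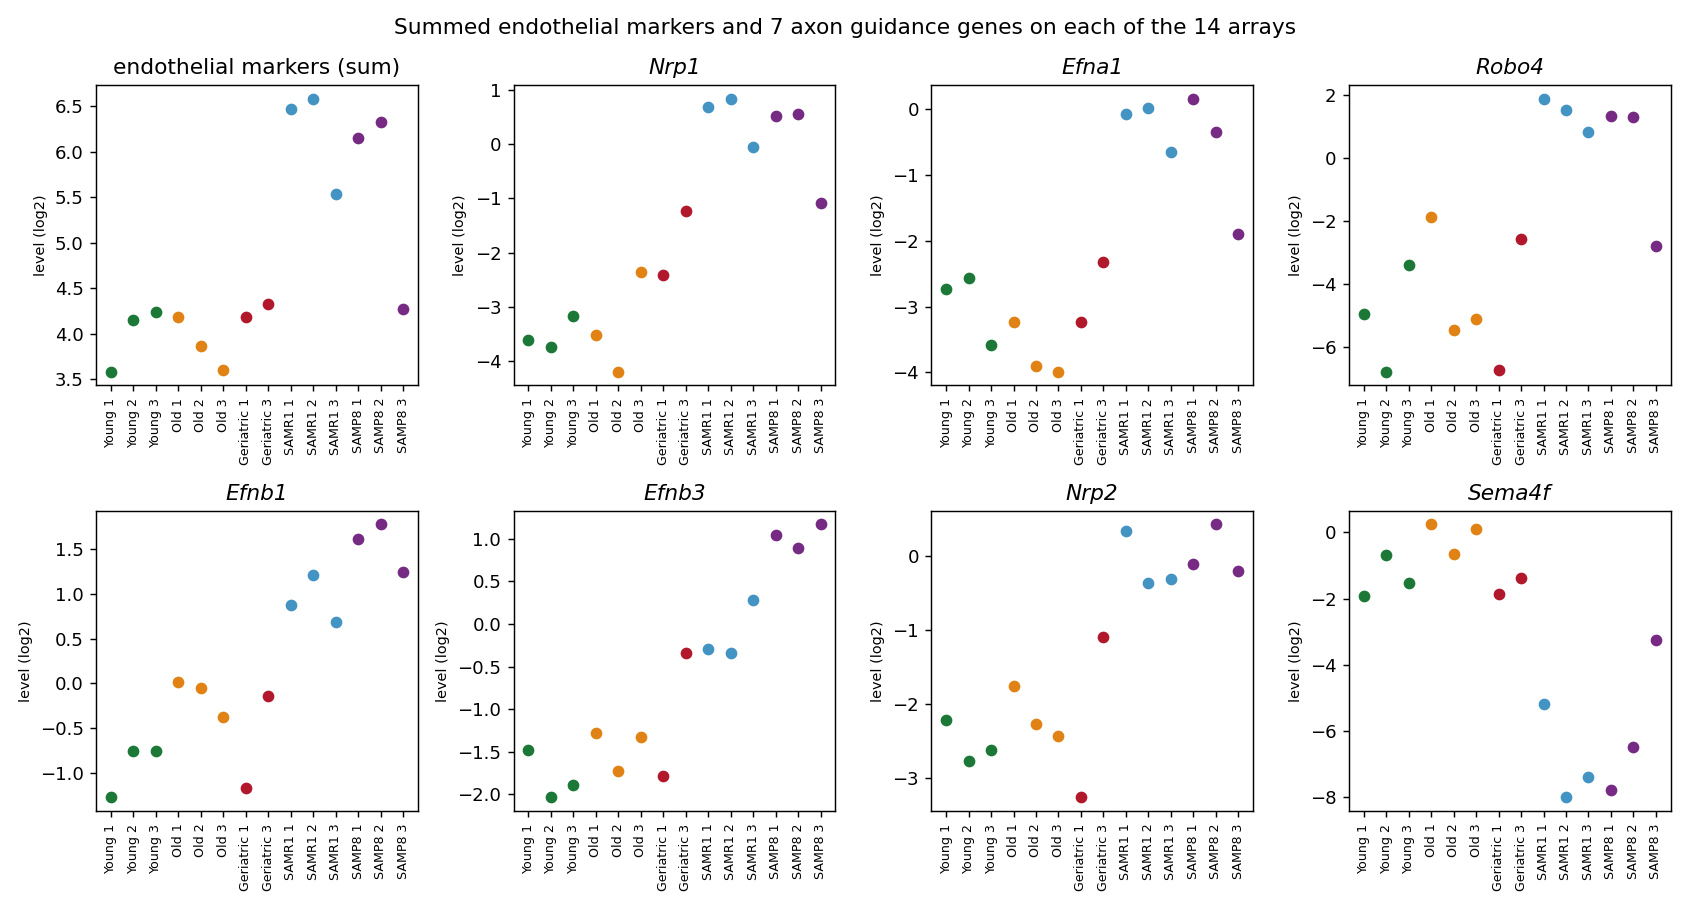
Level (vertical axis, in log2 units as in the text) on each of the 14 arrays (horizontal axis, coloured by group) of the summed 12 endothelial markers and of 7 axon guidance genes, 6 from the strain pattern and Robo4, which was chosen after its values were seen and whose SAM and C57BL/6 arrays overlap. On SAMP8 3 the markers, Nrp1, Efna1 and Robo4 are the lowest of the SAM arrays, and Efnb1, Efnb3 and Nrp2 are not.

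Where a gene had several kept probes, they did not always move together. Of 15 such axon guidance genes, all kept probes had the sign of the brightest in 11 for Old versus Young, 10 for Geriatric versus Young, 9 for Geriatric versus Old and 8 for SAMP8 versus SAMR1. Sema3g is an example chosen after its values were seen. Its brighter probe averaged −1.59 in Young, −1.46 in Old, −2.36 in Geriatric, −2.52 in SAMR1 and −2.97 in SAMP8 samples, whereas the other averaged −4.38, −4.23, −6.79, −0.91 and −0.52. The brighter probe thus read lower and the other higher in SAM than in C57BL/6 samples. The probes lie at chr14:32042510-32042569 and chr14:32043435-32043494, 865 bases apart on the plus strand, and share no run longer than 5 bases.
Sema3g, brighter probe: ttgggattgaatctagggtctcatgcatgc
Sema3g, other probe: attgttgttgatatttttattgtcatgttg

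The wider pathway was followed in a list of partner genes, of which 96 were measured: 21 co-receptors and alternative receptors, 10 other ligands, 56 cytoplasmic effectors and 9 proteases and matrix partners. Old versus Young called 1 of 96 (1.04%, beside 1.44% of all genes), Nck1, an adaptor that links guidance receptors to actin. It read −1.24, −1.13 and −0.87 on Young and −2.0, −2.19 and −2.04 on Old arrays (−1.0 ± 0.21, adjusted p = 0.0432). Geriatric versus Young called 2 (2.08%, beside 4.19% of all genes), both higher. They were Farp2, a guanine nucleotide exchange factor downstream of Sema3a receptors (1.0 ± 0.25, adjusted p = 0.0481), and Flrt2, a membrane ligand of Unc5 receptors (1.77 ± 0.44, adjusted p = 0.0488). Geriatric versus Old called 17 (17.7%, beside the 20.0% of all genes), of which 13 rose and 4 fell. Among these Nck1 rose by 1.24 ± 0.23, from the low Old levels to −0.77 and −0.92. Dpysl2, the collapsin response mediator that relays Sema3a signals to microtubules, rose by 0.91 ± 0.19, while its relative Dpysl3 fell by 1.30 ± 0.28. Mical1, an enzyme that oxidises actin downstream of plexins, rose by 0.97 ± 0.22. The adjusted p of these 4 ran from 0.00489 to 0.0118. SAMP8 versus SAMR1 and the difference of the 2 contrasts called 0 of 96 in limma, with 6 and 9 at an unadjusted p under 0.05, beside 2738 and 5361 of the 32863 genes.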

How the data were processed

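RNA of 14 samples was measured on single-colour Agilent arrays. The deposited scanner files hold each spot's processed signal as an intensity, from Agilent Feature Extraction 10.7.3.1 with mm9 probe coordinates, per the file headers. The authors' deposited value table holds log2 values, which a normexp correction (offset 50) and quantile normalization matched to within 1.17e-04. That table's scale and direction were read from this match.

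From the scanner files, control and outlier spots were left out (515 probe values missing), the 75th percentile of each array was subtracted from log2 signal, probes that at least 2 arrays of some group read well above background were kept (49918 of 55681), and a gene was its kept probe with the highest mean. With 14 arrays the precision is limited. limma 3.58.1 in R 4.3.3 (lmFit, eBayes, two-sided, 1 coefficient per group over 14 arrays, Benjamini-Hochberg over 32863 genes, threshold 0.05) gave log2 changes with standard errors, and was tested on simulated data. P-values measure the spread between these arrays. Slides 1 (6 arrays) and 2 (8 arrays) were read from the array identifiers, and no label gives them.

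The main fit did not pair samples by replicate number, as no label says what a number shares. Same-numbered deviations correlated between −0.255 and 0.158, and with 2 or 3 pairs per comparison this cannot show whether the samples were paired. Genes named are every axon guidance gene called, the 3 with the smallest p per comparison, the 3 with the strongest signal per family, up to 4 called partners per comparison and fixed check genes. Others are said to have been chosen after their values were seen, or are given for the strain and sex-linked patterns, which were. The members and the lists were chosen with earlier results of these data known. Alternatives were other background corrections, normalizations, filters, probe summaries, slide and replicate blocks, subsets and leaving out each array.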

Additional observations from a re-analysis of the deposited data

Results flagged for a closer look

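For 3 axon guidance genes the change from Young to Geriatric C57BL/6 cells and the difference of SAMP8 from SAMR1 cells differed by the test of that difference in limma. The difference of the log2 changes was −5.80 for Epha3 (lower on both Geriatric arrays, with no call between the SAM strains), −5.21 for Sema3a and 2.32 for Ntn4. The Epha3 probe was not well above background on either Geriatric array, so the size of its difference is uncertain, and it ran from −6.35 to −1.45 over the settings tried. Ages, strains and sex-linked transcripts differ between the contrasts and cannot be told apart. No group held 4 arrays, so single arrays were not tested as outliers.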

How the results depend on the processing

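Direction was followed over the settings for the called axon guidance genes and the 3 with the smallest p per comparison. None of these changes reversed. Other named changes were not followed in this way. The counts of axon guidance genes called were less stable. For Old versus Young the count of 1 became 0 with normexp and quantile normalization, the authors' table, slide as a block, within slide 1, within slide 2, the replicate block and only the groups compared, and 2 with the mean of a gene's probes and with each probe tested. Leaving out 1 array gave 0 to 2. For Geriatric versus Young the count of 5 became 10 with a trend in eBayes, 0 within slide 2 and 1 with only the groups compared, and lay between 2 and 7 without 1 array. For Geriatric versus Old the count of 12 became 3 within slide 2 (Efna5, Epha3 and Sema3a) and lay between 4 and 14 without 1 array. For SAMP8 versus SAMR1 the count of 1 became 0 within slide 1, within slide 2, with the replicate block and with only the groups compared, and was 0 or 1 without 1 array. For the difference of contrasts the count of 3 became 5 with a trend and 0 within slide 2, and lay between 2 and 4 without 1 array. Settings within a slide or with only the groups compared use fewer arrays. In both Geriatric comparisons the lowest count came without Geriatric 3. The replicate block gave 4 in Geriatric versus Young, 11 in Geriatric versus Old and 2 in the difference. It lost Sema4d in Old versus Young (adjusted p = 0.0780), Sema5a in Geriatric versus Young (0.0850), Ephb1 in Geriatric versus Old (0.0544), Slit3 (0.0531) and Ntn4 in the difference (0.0693); other named calls were kept.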

Other observations

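Some receptors varied widely within groups, and the following were chosen after their values were seen. Unc5c, a netrin receptor, read −7.53, −5.12 and −6.83 on Young arrays (above background on 1 of 3) and −2.03, −3.10 and −3.34 on Old arrays without overlap, but the change of 3.67 ± 1.20 was not called by limma (adjusted p = 0.152). Geriatric 1 and 3 read −2.33 and −5.75. The second Unc5c probe, which was not kept, showed no such rise. It averaged −5.32 on Young and −5.64 on Old arrays and was above background on 1 of 3 in each. Plxnc1, the receptor of Sema7a, read −3.66, −2.80 and −3.31 on Young and −1.59, −1.45 and −2.49 on Old arrays, again not called (1.42 ± 0.50, adjusted p = 0.179). Its other kept probe, not used for the gene, read −3.58, −2.82 and −4.69 on Young and −1.57, −1.91 and −1.51 on Old arrays. That probe changed by 2.04 and was called with each probe tested (limma adjusted p = 0.0382). Epha7 has a second probe, not used for the gene, which fell by 2.06 from Old to Geriatric (adjusted p = 0.0109 with each probe tested), against −0.60 on the probe used (adjusted p = 0.312).

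A word of 15 bases was shared with a probe of another gene by 21 of the 90 axon guidance probes (23.3%) and by 357 of 1114 probes taken at even steps over the array (32.0%). Geriatric values rest on 2 arrays, both on slide 2, and dim genes such as Sema3e and Sema5a lie near background.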
